A study of Mus musculus with 4 samples.

Results

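Runx1, Gfi1 and Gfi1b, 3 of the 31053 genes counted in the files, were followed across cell classes, libraries and genotypes. The data are single-cell RNA profiles of the mouse aorta-gonad-mesonephros region. These genes were picked by symbol, with earlier results of these data known. RUNX1 is a DNA-binding factor that needs CBFB as its partner and is required for blood cells to arise from hemogenic endothelium, the specialised lining of the embryonic dorsal aorta. GFI1 and GFI1B are closely related zinc-finger repressors that recruit the LSD1 and CoREST complex. In the aorta they are known to act downstream of RUNX1, silencing endothelial genes while cells turn into blood, and GFI1B is also needed by the erythroid and megakaryocyte lineages.

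Endothelial cells had been sorted as CD31-positive and CD45-negative at embryonic day 10.5 and profiled with the 10x 3' v3 chemistry, as 2 wild-type (WT) libraries and 2 libraries of the mir-223 -/- genotype (KO). All 4 share the stage, tissue and sort. Whether each library is a separate litter, how many embryos it pools and on which strain the deletion sits are not in the labels. For KO against WT, the spread that p-values rest on is that between these 4 libraries, which may be technical. Comparisons of cells with and without a detected gene rest on differences within 3 or 4 libraries, with spread shared across genes in the fit. Their very small p-values therefore do not measure replication between embryos. The level of miR-223 itself was not analysed here.

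The files held 3917, 11186, 6119 and 10299 barcodes for the WT pair (replicate 1, then 2) and the KO pair, an order kept below, with 95158639 to 181682389 UMIs (unique transcript counts) per library, and 19162 cells were kept after filtering. Between 8 and 28 barcodes were shared by any pair of libraries. Beside the sort, Pecam1, which encodes CD31, had a UMI in 86.4% of kept cells, and Ptprc, which encodes CD45, in 55 of 19162. Of those 55 cells, 49 lay in the hemogenic-like class, where they made up 17.1% of 286 cells. KO replicate 1 stood apart in Xist, the X-inactivation transcript, detected in 3 of its 4124 cells against 40.6 to 49.6% of cells in the other libraries. Classes were named "-like" from marker lists that hold none of the 3 genes, after clustering with the 3 genes left out. Because clusters are built from expression, levels across classes are given as a description, without a test.

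The hemogenic-like class was a single cluster of 286 cells (11, 74, 125 and 76 by library) led by Spi1, Nupr1, Ikzf2, Neurl3 and Myb, and by Runx1 itself, although Runx1 was not used to form it. Lyz2, Cebpb and Coro1a, genes of blood cells, were also among its 10 leading genes, beside endothelial Pecam1 in 250 of its cells. The 2 arterial-like clusters differed: cluster 10, with 762 cells, was led by Htra1, Nkx2-3, Tmem100, Gja5 and Vwf, and cluster 6, with 1022 cells, by Gja4, Gja5, Unc5b and Vegfc. The venous-like name rested on Nrp2 alone among the leading genes of its cluster. The 148 erythroid-like cells came from 2 clusters that divided by replicate number: cluster 22 held 46, 2, 70 and 2 cells of the 4 libraries and cluster 25 held 0, 11, 0 and 17.

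The deleted microRNA pairs with targets through its seed, bases 2 to 8, shown here in capitals because the same letters were searched for in the members' transcripts.
miR-223-3p: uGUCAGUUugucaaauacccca
It lies at chrX:96242884-96242905 on the plus strand (RefSeq, GRCm38.p6). Neither site complementary to the seed, AACTGAC or ACTGACA, was found in an annotated 3' UTR of the members: 4 transcripts of Runx1 (257 to 4189 bases of 3' UTR), 3 of Gfi1 (1074 to 1083) and 2 of Gfi1b (570 to 575). Of 21007 genes with an annotated 3' UTR in GENCODE M21, 15.8% held at least 1 of these sites. The search says only that those letters are not in these 3' UTRs.

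All 3 genes are encoded on minus strands in GRCm38: Runx1 at chr16:92601466-92826149, Gfi1 at chr5:107716657-107726036 and Gfi1b at chr2:28609450-28621982 (GENCODE M21). Promoters from RefSeq, 250 bases before to 50 after a start, were searched on both strands for the letters TGTGGT of RUNX factors, AGATAA of the GATA family, AAATCAC of GFI1 proteins and CCGGAAG of ETS factors, since GFI1 proteins are known to repress their own genes and RUNX1 acts on them. The distal start of Runx1 held 2 RUNX matches just downstream, read on the opposite strand, and the second start of Gfi1 held 1 ETS match. These matches are shown with their surroundings, matches in capitals.
Runx1 distal start, chr16:92826026-92826053: ataaacaACCACAgaACCACAagttggg
Gfi1 second start, chr5:107724317-107724344: gctccaagcccCTTCCGGgtcccaaaca
Across 32851 promoter windows of 300 bases, 16.8% held a RUNX match, 1.81% held 2 or more, and 8.86% held an ETS match. No match to any of the 4 motifs was found in the other Runx1 start, the other Gfi1 start or Gfi1b, in windows where 3.20% of promoters hold the GFI1 letters. Libraries made from the 3' end do not tell the starts of a gene apart.

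Runx1 was detected in most hemogenic-like and most megakaryocyte-like cells. In the hemogenic-like class, 10 of 11, 65 of 74, 118 of 125 and 69 of 76 cells had a Runx1 UMI, which is 262 of 286 or 91.6% (95% exact Clopper-Pearson interval 87.8 to 94.5%; such intervals cover counting error only). Its level, as the class's summed UMIs of the gene scaled to its total UMIs (CPM), was 132, 182, 180 and 177 in the same order of libraries. The lowest value came from WT replicate 1, which contributed 11 cells, and the KO values lay inside the WT range.

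Megakaryocyte-like cells, 117 in all and led by Pf4, Ppbp and Treml1, carried Runx1 in 27 of 30, 21 of 24, 11 of 16 and 44 of 47 cells. Their Runx1 level was 67.8 and 84.3 CPM in the replicate 1 libraries (WT, then KO) and 164 and 194 CPM in the replicate 2 libraries. Both replicate 1 libraries were low and both replicate 2 libraries high, so the split followed the replicate number and not the genotype. A single cell of KO replicate 2 had 47 Runx1 UMIs, the most of any cell of the class. The megakaryocyte-like level was below the hemogenic-like level in 3 of 4 libraries, all but KO replicate 2, and the ranges overlapped.

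Outside those classes Runx1 was scarce. Arterial-like cluster 10 came next with 7 of 49, 8 of 268, 22 of 201 and 13 of 244 cells positive and 12.2, 3.0, 11.6 and 11.2 CPM. Mesenchymal-like cells had 6.19, 8.47, 4.37 and 6.32% positive cells at 2.55, 7.27, 3.01 and 6.20 CPM, and the erythroid-like class 4, 1, 6 and 3 positive cells at 2.42, 2.73, 3.14 and 5.99 CPM. These 3 ranges overlapped. Within the mesenchymal-like cells the highest Runx1 level, 8.91 CPM, was in the cluster led by Col1a1, Afp and Acta2, where 35 of 397 cells were positive. The cluster led by Prrx1 and Shox2 had 23 of 587 positive cells at 1.82 CPM.

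Across the 15786 endothelial-like cells, which leave out the hemogenic-like cluster, 461 or 2.92% had a Runx1 UMI: 3.35, 2.96, 2.63 and 2.90% by library. Free RNA can put UMIs into cells that do not express a gene, so the share was set beside 2 classes that are neither endothelial nor blood. It was 1.40% in 430 primordial germ cell-like cells, whose median depth of 41551 UMIs was above the endothelial 19940.5, and 0.959% in 417 neural-like cells with a median of 15691. Thinned to 5000 UMIs per cell, the expected shares were 0.710% in endothelial-like, 0.164% in germ cell-like and 0.232% in neural-like cells. All 4 Runx1 UMIs of neural-like cells lay in the cluster led by Tubb3 and Nefm, and whether they are free RNA was not tested. Venous-like cells, with 29 of 976 positive, and the 9049 endothelial-like cells of no named subtype, with 274 positive, were at 2.97 and 3.03%. Arterial-like cluster 6, with a median of 14099.5 UMIs, had 9 of 1022 positive cells, or 0.881%, below the unthinned germ cell-like and neural-like shares. Thinned, it was at 0.327%, above the thinned shares of both those classes.

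**Figure D1:**
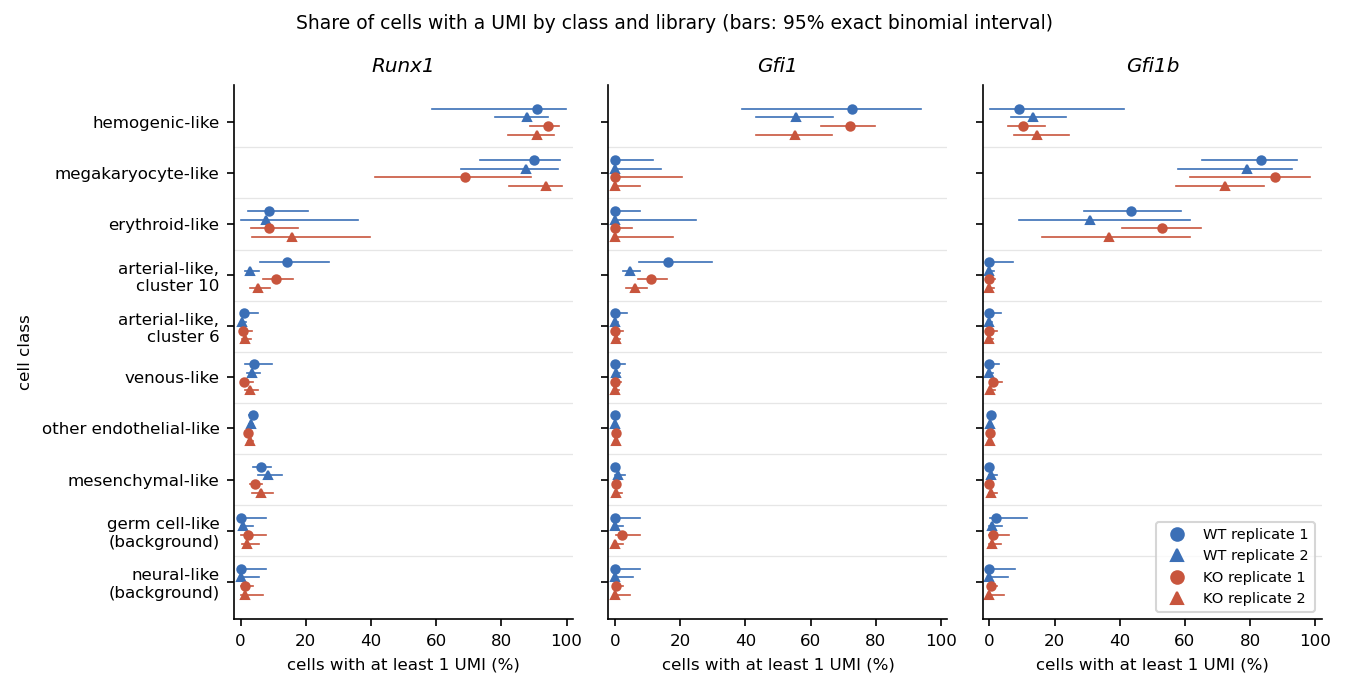
Share of cells with at least 1 UMI of Runx1, Gfi1 or Gfi1b (horizontal axis, percent) in each class (vertical axis) and library; points are libraries, colour is genotype, shape is replicate number, and bars are 95% exact binomial intervals. Runx1 is high in hemogenic-like and megakaryocyte-like cells, Gfi1 in hemogenic-like cells with a lesser share in cluster 10, and Gfi1b in megakaryocyte-like and erythroid-like cells.

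Gfi1 was found mainly in hemogenic-like cells. In the hemogenic-like class it was detected in 8 of 11, 41 of 74, 90 of 125 and 42 of 76 cells, 63.3% in all. Its level by library was 75.6, 57.9, 100 and 51 CPM, so the highest and the lowest value both came from KO. Shares of 72.7 and 72.0% in the replicate 1 libraries and 55.4 and 55.3% in the replicate 2 libraries again divided by replicate number; the depth behind them was a median of 29690 and 22115 UMIs per cell in the first pair and 20746.5 and 20291 in the second. Thinned to 5000 UMIs, the expected shares kept that order at 30.8 and 36.4% against 24.6 and 23.4%. Whether depth or handling of the libraries has a part in this was not tested.

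Of 270 Gfi1-positive cells, 181 were hemogenic-like, and 57 lay in arterial-like cluster 10, which holds 3.98% of kept cells. In that cluster, 8 of 49, 12 of 268, 22 of 201 and 15 of 244 cells were positive, at 13.1, 6.67, 14.3 and 5.61 CPM. No library of cluster 10 reached the lowest hemogenic-like level. The level depends on where the cluster ends: over all libraries it was 9.09 CPM, and 5.49 CPM when the 3 genes were kept among the clustering genes, which left 741 cells in this cluster and moved the hemogenic-like cluster from 286 to 314 cells. Cluster 6, the other arterial-like cluster, had 1 positive cell of 1022. No Gfi1 UMI was found in 117 megakaryocyte-like or 148 erythroid-like cells, which allows up to 2.56 and 2.03% of cells with a UMI (3 counts of the total, not a limit on cells that express the gene), nor in 980 sinusoidal-like cells. In endothelial-like cells of no named subtype Gfi1 had a UMI in 16 of 9049 cells (0.177%), against 2 of 430 germ cell-like (0.465%) and 1 of 417 neural-like cells (0.240%). Thinned to 5000 UMIs these shares were 0.0439, 0.0771 and 0.0807%, so no Gfi1 above those classes was detectable there at this depth.

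Gfi1b, which acts in erythroid and megakaryocyte development, was ordered megakaryocyte-like, erythroid-like and hemogenic-like, with no overlap between libraries of neighbouring classes. Megakaryocyte-like cells were positive in 25 of 30, 19 of 24, 14 of 16 and 34 of 47 cells, at 75.9, 76.1, 82.1 and 76.5 CPM. The 4 libraries lay close together. Erythroid-like cells were positive in 20 of 46, 4 of 13, 37 of 70 and 7 of 19 cells, at 32.1, 19.1, 32.8 and 19.96 CPM. Higher values belonged to the replicate 1 libraries, whose erythroid-like cells lay in cluster 22, and lower values to the replicate 2 libraries, mostly in cluster 25. Cluster 22 was led by the embryonic globins Hbb-bh1 and Hbb-y, and cluster 25 by Hba-a1, Hba-a2, Hbb-bt and Hbb-bs. In hemogenic-like cells 1, 10, 13 and 11 cells were positive, 12.2% in all, at 2.70, 10.3, 8.23 and 6.80 CPM. No Gfi1b UMI was found in the 1784 arterial-like cells, which by the same count of 3 allows up to 0.168% of cells with a UMI, and the 19 positive cells among all 15786 endothelial-like cells (0.120%) were fewer than the 0.930% of germ cell-like cells.

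**Figure D2:**
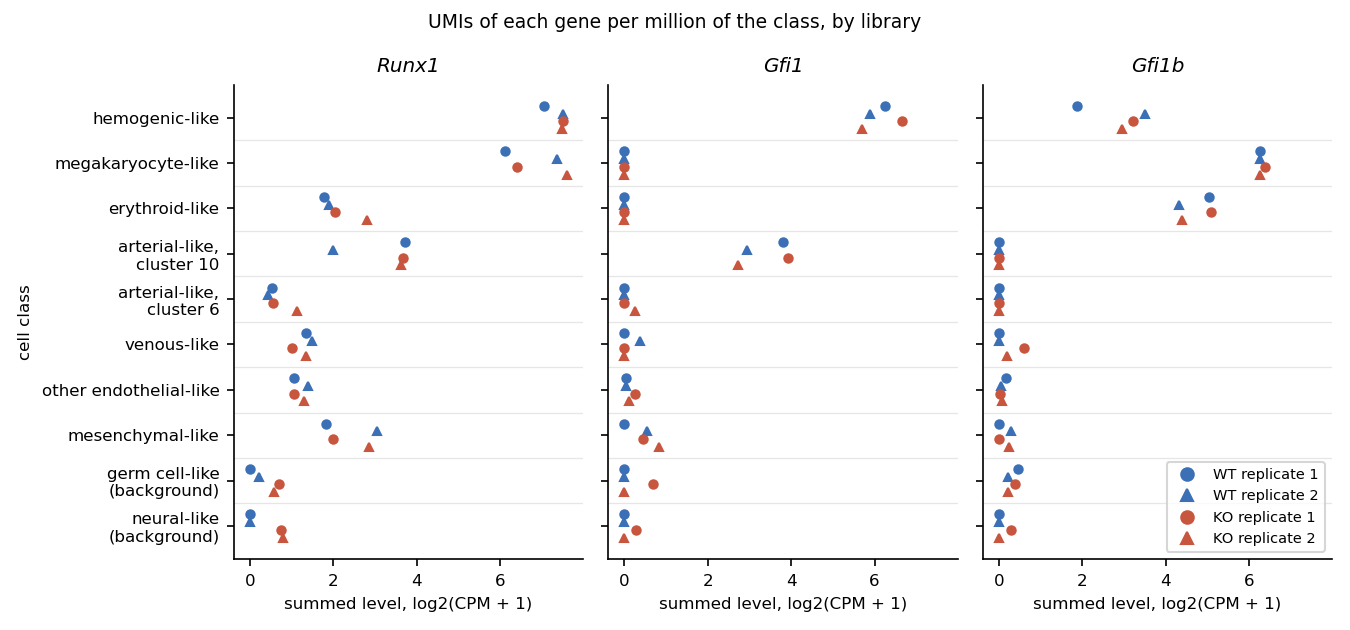
Summed level of each gene, log2(CPM + 1), on the horizontal axis by class on the vertical axis; points are libraries, colour is genotype and shape is replicate number. For Runx1 the megakaryocyte-like points fall into a low replicate 1 pair (67.8 and 84.3 CPM) and a high replicate 2 pair (164 and 194 CPM), and for Gfi1b the megakaryocyte-like points lie between 75.9 and 82.1 CPM.

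The genes most like each member were ranked by the correlation of log2(CPM + 1) over 46 class-by-library sums, which share libraries and depth, and are given as a description. Runx1 was nearest to Lyz2 (r = 0.949), a lysozyme of myeloid cells, and to Dok2 (0.942), Cd300a, Spi1 and Myom1. Spi1 encodes PU.1, a myeloid factor. Gfi1 had no neighbour as close: Nupr1 reached 0.866, followed by Ms4a6d, Mctp1, S100a4 and Traf3ip3. Gfi1b was nearest to Mfsd2b (0.970), a sphingosine-1-phosphate exporter of red cells and platelets, then Treml2, Nfe2, Gata1 and Rac2, of which Gata1 and Nfe2 are erythroid and megakaryocyte factors. Between the members, r was 0.741 for Runx1 with Gfi1b, 0.639 for Runx1 with Gfi1 and 0.199 for Gfi1 with Gfi1b.

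Detection in the same cell followed these classes. Runx1 and Gfi1 were both detected in 7 of 11, 38 of 74, 85 of 125 and 39 of 76 hemogenic-like cells, 169 of 286 in all, where the product of their separate shares over the class gives 166 cells. Gfi1 and Gfi1b met in 17 hemogenic-like cells (0, 3, 10 and 4 by library) where the product gives 22.2, and 16 of those 17 also had Runx1. By library the product gives 0.727, 5.54, 9.36 and 6.08 cells, so KO replicate 1 was not below it. Cells with Runx1 and Gfi1 but no Gfi1b made up 53.5% of the class, cells with Runx1 alone 26.9%, and 3.50% had none of the 3 genes; the latter 10 cells had a median of 14977 UMIs against 21542.5 for the class.

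In megakaryocyte-like cells Runx1 and Gfi1b were both detected in 82 of 117 cells, against a product of 81.0. Of 148 erythroid-like cells, 71 had none of the 3 genes, 63 had Gfi1b alone and 5 had it with Runx1. Most hemogenic-like and megakaryocyte-like cells had Runx1, so overlap with it could not lie far from the product there. Those classes therefore cannot be set against classes with low shares. In arterial-like cluster 10, Runx1 and Gfi1 met in 6, 4, 8 and 6 cells of the 4 libraries, 24 in all, where the product of shares gives 3.74. The median depth of these 24 cells was 20045 UMIs, against 11630 for the 679 cells of the cluster with none of the genes, and the part of depth in the excess was not tested. The border of this cluster moves when the 3 genes are kept among the clustering genes, and co-detection was not counted there.

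**Figure D3:**
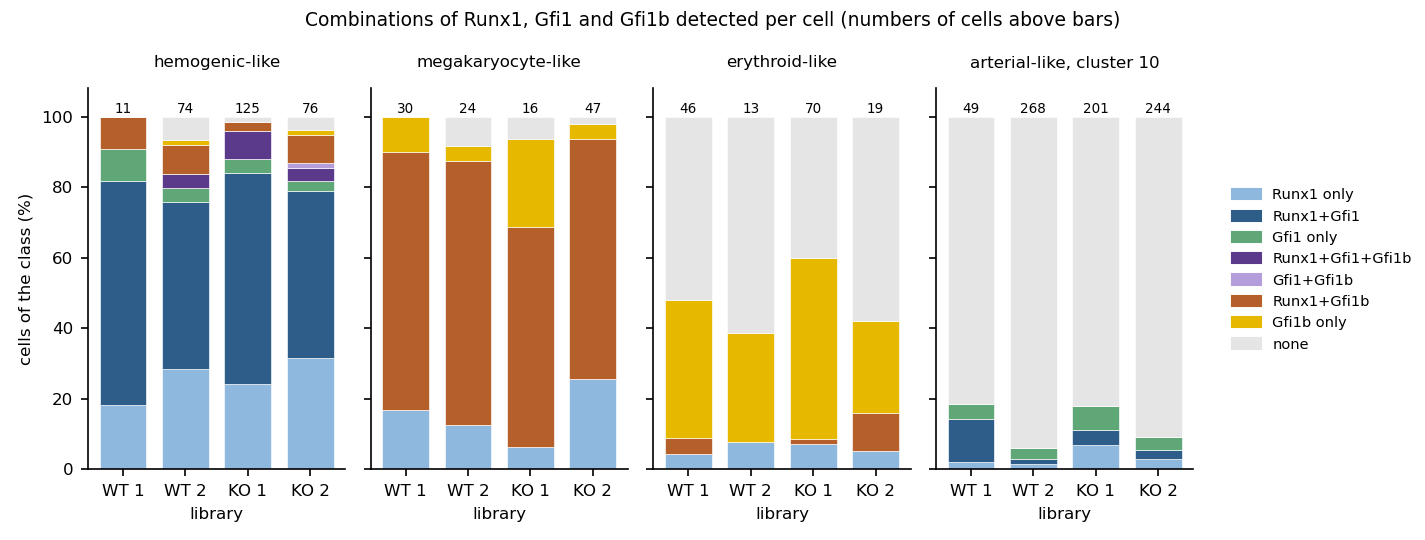
Percent of cells (vertical axis) with each combination of Runx1, Gfi1 and Gfi1b UMIs, by library (horizontal axis) in 4 classes; numbers of cells stand above the bars. The largest block is Runx1 with Gfi1 in hemogenic-like cells (53.5% over all libraries) and Runx1 with Gfi1b in megakaryocyte-like cells (82 of 117), and the cells of cluster 10 mostly have none of the 3.

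To see what accompanies Gfi1, hemogenic-like cells with a Gfi1 UMI were compared with those without, on sums per library with library as a block. Gfi1-positive cells had more RNA of endothelial genes and less of myeloid genes. Of 21 tested genes known to fall during the endothelial-to-hematopoietic transition, 10 were higher and 0 lower, with a median log2 fold change of 0.44 against 0.01 over all genes tested. Among them were Cdh5, the VE-cadherin gene, at 0.51 (SE 0.0863, edgeR quasi-likelihood adjusted p 4.93e-07), Emcn at 0.75, Pecam1 at 0.61 and Esam at 0.54. In all, 378 of 7881 genes passed an adjusted p of 0.05, 219 higher (2.78% of those tested) and 159 lower (2.02%), 4.80% in all. WT replicate 1 had 3 Gfi1-negative cells and was not used. Without WT replicate 2, 129 genes passed, and without KO replicate 2, 163. Under DESeq2 32 passed, and Cdh5 did not (adjusted p 0.269).

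Pecam1, the gene of the sorting antigen CD31, had 159 and 78.9 CPM in Gfi1-positive and Gfi1-negative cells of WT replicate 2, 136 and 104 CPM in KO replicate 1, and 168 and 115 CPM in KO replicate 2. Procr, which encodes the endothelial protein C receptor, had 268 and 115 CPM in WT replicate 2, 179 and 103 CPM in KO replicate 1, and 249 and 141 CPM in KO replicate 2. For both genes every positive sum exceeded every negative sum, and Procr gave a log2 fold change of 0.94 (SE 0.108, edgeR adjusted p 2.56e-15). How many of all tested genes separate this way was not counted. Procr was picked only from genes that moved the same way in every library used. With Gfi1 status read from cells thinned to 5000 UMIs, Procr did not pass (adjusted p 0.248). Other leading genes on this side were Cdkn1c (a cell-cycle inhibitor), Fn1, Cldn5, Sparc and Col4a1, at 0.68 to 0.79.

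On the other side, Fcer1g, the shared gamma chain of Fc receptors, was at 13.7, 7.67 and 17 CPM in the positive and 160, 110 and 204 CPM in the negative cells of these libraries. Its log2 fold change was −3.65 (SE 0.190, edgeR adjusted p 9.92e-78). Mpo, the myeloperoxidase of granules, was at 15.9, 11.5 and 20.2 against 81.4, 82.0 and 242 CPM, a log2 fold change of −3.02 (edgeR adjusted p 4.71e-53). Tyrobp, Cd52 and Rac2, all genes of blood cells, stood at −3.59, −6.03 and −2.66, and the granule protease gene Prtn3 at −1.56.

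These sums are uneven over cells. An Mpo UMI was found in 32 Gfi1-negative cells, 31.4% of them, and in 33 of 173 Gfi1-positive cells, and 5 cells held 68.1% of the Mpo UMIs of the negative side. The myeloid marker list as a whole summed to 164 to 227 CPM in positive and 452 to 1163 CPM in negative cells, with 8 to 9 and 9 to 16 of its 16 genes detected. The part of these few cells in the other differences was not tested. Median depth differed little, 20106 to 21747 UMIs per library in positive and 20605 to 22579 in negative cells.

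Factors known to act upstream of or beside Runx1 moved in both directions: 4 of 15 were higher and 1 lower, with Sox7 at 1.05, Mecom at 0.55 and Hhex at 0.41, and with Lmo2 at −0.33. Of 9 tested genes described as activated by RUNX1, 3 were lower, with Mpo and Pf4 (−1.49) among them, and 0 higher. None of the 9 LSD1 and CoREST genes or the 3 tested RUNX partners passed. Runx1 did not pass between Gfi1-positive and Gfi1-negative cells, at 0.24 (edgeR adjusted p 0.195), with 196 and 167 CPM in WT replicate 2, 187 and 164 in KO replicate 1, and 197 and 156 in KO replicate 2.

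Gfi1b-positive hemogenic-like cells, 10, 13 and 11 in the 3 usable libraries, showed lower arterial and endothelial RNA. Of the same 21 endothelial genes, 0 were higher and 10 lower, with a median log2 fold change of −0.79 against 0.00 over all genes. Gja4, the arterial connexin 37 gene, was at 21, 50.9 and 36.8 CPM in positive and 113, 164 and 154 CPM in negative cells, a log2 fold change of −1.97 (SE 0.217, edgeR adjusted p 1.62e-09). Pecam1 was at 54.1, 47.7 and 76.6 against 138, 136 and 159 CPM, or −1.26 (edgeR adjusted p 2.85e-06). Efnb2 (−2.03) and Cdh5 (−0.69) were also lower, as were Mecom (−1.03), Sox7 (−1.51) and Sox17 (−0.97), 3 of 15 upstream factors. No library overlapped between the sides for Gja4 or Pecam1, and the share of all tested genes without overlap was not counted. In all, 79 genes were higher (0.994%) and 135 lower (1.70%) of 7949, 2.69% in all.

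Edn1, the endothelin-1 gene, had a UMI in 3 of 34 positive and 94 of 241 negative cells and a log2 fold change of −4.30 (edgeR adjusted p 3.88e-09). Pf4, the platelet factor 4 gene, was higher at 2.0 (SE 0.290, edgeR adjusted p 1.38e-06), with 60.1, 35.0 and 113 CPM in positive and 10.6, 16.2 and 23.7 CPM in negative cells. It was the 1 member of the RUNX1-activated list of 9 to pass. Of its UMIs in positive cells, 72.1% came from 5 cells. Rac2 (1.33), Plek (1.70) and Cmtm7 (1.18) rose with it, and Rac2 and Cmtm7 were among the genes lower in Gfi1-positive cells. Gfi1 itself did not pass, at −0.58 (edgeR adjusted p 0.254), nor did Runx1, at −0.05 (edgeR adjusted p 0.951).

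Beside these results, the megakaryocyte list summed to 251 to 358 CPM in Gfi1b-positive and 118 to 162 CPM in negative cells (10 to 12 and 12 to 13 of its 16 genes detected), and the pan-endothelial list to 1663 to 2019 against 2883 to 3291 CPM, with all 14 genes detected. Positive cells were deeper in each library, at medians of 34600, 24297 and 28645 against 19670.5, 21747 and 19989 UMIs, and the part of depth and of megakaryocyte-like RNA was not tested. With 34 positive cells, 1 library weighs much: without WT replicate 2, 47 genes passed, without KO replicate 2, 106, and under DESeq2, 38. The Gfi1 and Gfi1b comparisons use the same cells, and a difference between them was not tested.

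**Figure D4:**
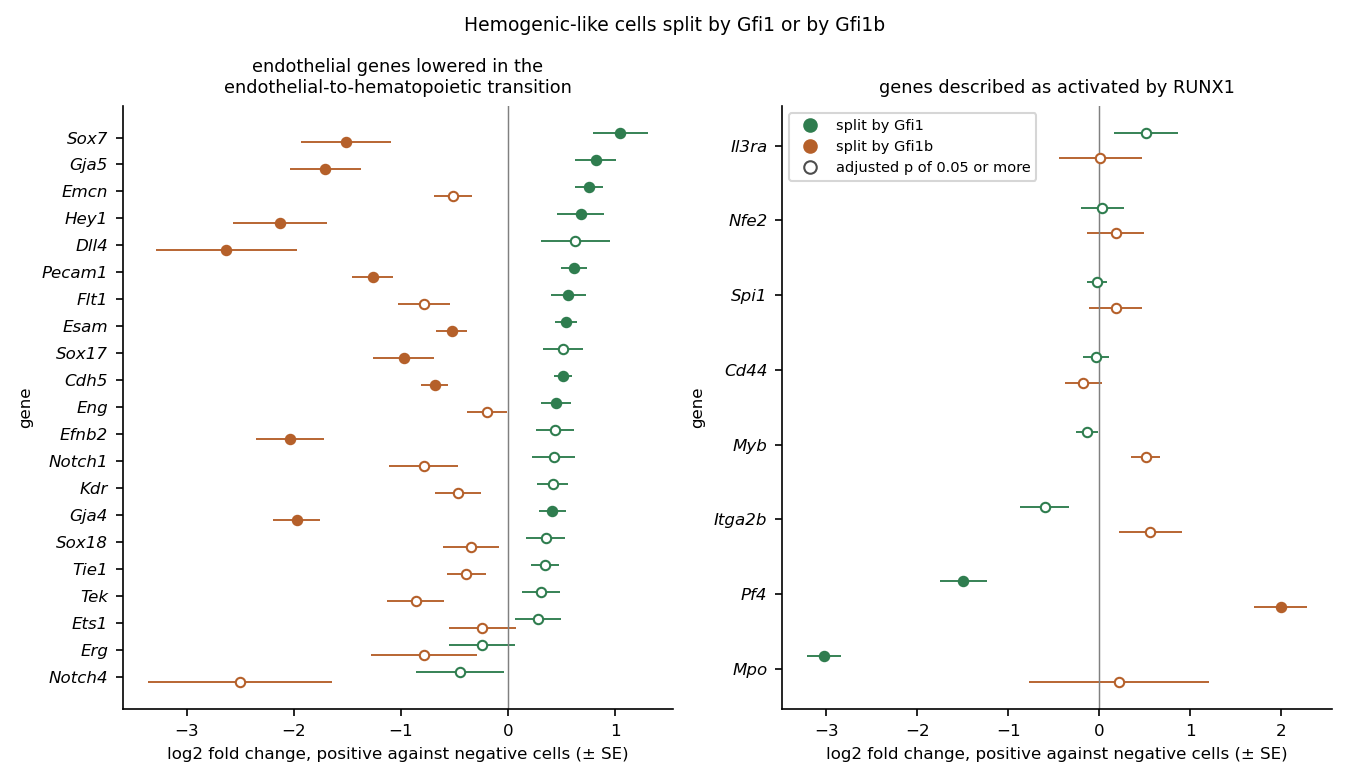
Log2 fold change (horizontal axis, ± SE) between positive and negative hemogenic-like cells for endothelial genes (left) and 8 of the RUNX1-activated genes (right), in the comparison by Gfi1 and in the comparison by Gfi1b over 3 libraries; filled points passed an edgeR adjusted p of 0.05. Of the 21 endothelial genes, 10 passed as higher with Gfi1 and 10 as lower with Gfi1b.

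The same 286 cells were also divided by a UMI of Pecam1, Mpo or Ptprc. Gfi1 was detected in 167 of 250 hemogenic-like cells with a Pecam1 UMI (66.8%) and in 14 of 36 without (38.9%), while Gfi1b was in 24 of 250 (9.60%) and 11 of 36 (30.6%). By library, Gfi1 was at the higher share with Pecam1 in all 4. Gfi1b was at the lower share in 3 and not in KO replicate 2, with 10 of 67 cells against 1 of 9. In WT replicate 1 the side without Pecam1 was 1 cell, which had Gfi1b and no Gfi1, so that library adds little to either tally. Runx1 was in 92.0 and 88.9% of them. With an Mpo UMI, 51.5% of 68 cells had Gfi1 and 23.5% had Gfi1b; without it, 67.0 and 8.72% of 218 did. Cells with Mpo were deeper, at a median of 27088.5 against 20138.5 UMIs, and the part of depth was not tested. Cells with a Ptprc UMI had Gfi1 in 33 of 49 and Gfi1b in 9 of 49, against 62.4 and 11% of the 237 cells without. These cells were clustered on Pecam1 and other such genes, and the shares are given without a test. Pecam1 and Mpo had passed in the Gfi1 comparison, and Pecam1 in the Gfi1b comparison, largely on the same cells. The shares by these genes restate those comparisons and are no further support.

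When hemogenic-like cells were divided by Runx1 itself, the negative side held 9, 7 and 7 cells in 3 libraries. Positive cells were deeper, at medians of 21366, 22115.5 and 20455 against 15896, 21461 and 15638 UMIs. Of 8136 genes 37 passed, or 0.455%, with 12 higher (0.147%) and 25 lower (0.307%); edgeR called 0 without KO replicate 2 (409 genes had an unadjusted p under 0.05), and DESeq2 called 2 with all 3 libraries. With Runx1 status read from thinned counts 3 genes passed, and Mki67 (0.52, edgeR adjusted p 0.993) and Ctsl (−0.17, edgeR adjusted p 0.954) did not. Mki67, a marker of cycling cells, was higher at 1.08 (edgeR adjusted p 0.00732), at 242, 198 and 206 CPM in positive and 90.8, 144 and 63.7 CPM in negative cells, as were Hmga2, Hmgb2, Tpx2 and Stmn1 at 0.46 to 1.08. Ctsl, a lysosomal protease gene, was lower at −0.99 (edgeR adjusted p 1.39e-04), along with Nrp1 at −0.99. Of the negative cells' Mki67 UMIs, 86.7% lay in 5 cells. No gene of the pathway lists passed, the 21 endothelial genes having a median of −0.57, and neither Gfi1 (0.71, edgeR adjusted p 0.660) nor Gfi1b (−0.73, edgeR adjusted p 0.942) did.

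Endothelial-like cells with a Runx1 UMI, 58, 178, 79 and 146 by library, had more Gfi1 and Spi1 RNA than the remainder. Gfi1 was at 4.43, 2.43, 7.93 and 2.50 CPM in Runx1-positive and 0.0878, 0.118, 0.482 and 0.149 CPM in Runx1-negative cells, a log2 fold change of 4.35 (SE 0.432, edgeR adjusted p 4.19e-14). Every positive sum exceeded every negative sum, and the share of all tested genes that do so was not counted. The counts behind it are small: 27 of 461 positive and 50 of 15325 negative cells had a Gfi1 UMI, and 24 of those 27 lay in arterial-like cluster 10. That cluster's border with the hemogenic-like cluster depends on the clustering genes. With the 3 genes among them, the arterial-like cluster held 62 Runx1 and 53 Gfi1 UMIs, against 90 and 91 without. The comparison was not refitted on those clusters. Spi1 had a log2 fold change of 3.96 (edgeR adjusted p 4.72e-08) from 15 positive and 43 negative cells. Of 13766 genes, 136 were higher (0.988%) and 170 lower (1.23%), 2.22% in all.

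Ikzf2 (1.92), a hemogenic marker, and Meis1 (0.97, edgeR adjusted p 2.19e-06) and Hey2 (0.71) from the upstream list were higher, while Sox7 (−0.28) and Notch1 (−0.21, lower in 3 of 4 libraries) were lower, making 2 higher and 2 lower of 16. Endothelial genes were mixed, with 2 higher, Tek (0.23) and Hey2, and 4 lower of 22, among them Flt1 (−0.20) and Sox7. Spi1 was the 1 of 10 RUNX1-activated genes to pass. None of the 4 tested RUNX partners or 9 LSD1 and CoREST genes did, and of 8 erythroid and megakaryocyte factors Bcl11a (0.51) rose.

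The 10 higher genes with the smallest adjusted p were picked only from those higher in all 4 libraries. They held Jun (0.49), Fosb (0.93), Egr1 (0.96) and Junb (0.54), which encode transcription factors, and Hspa1b (0.71), a heat shock gene. Jun was at 273, 240, 277 and 270 CPM in positive and 210, 173, 179 and 179 CPM in negative cells. The transcripts Gm42418 and AY036118, which overlap ribosomal RNA sequence, were lower at −0.43 and −0.53, and Stab2, a gene of sinusoidal endothelium, was lower at −0.71. Positive cells were deeper in each library, with medians of 37536.5, 23316, 21715 and 26055 UMIs against 30571, 18310, 20150 and 18800.5. Runx1 itself was at 0.610 CPM in the sinusoidal-like cluster and 8.99 CPM in cluster 10. The part of depth, of the mix of endothelial subtypes or of the state of the cells in these differences was not tested. In arterial-like cells alone, Gfi1 (4.2), Spi1 (4.19) and Meis1 (1.95) were higher and Sox17 (−0.86), Hey1 (−0.81) and Flt1 (−0.81) lower. Fosb and Egr1 did not pass there (edgeR adjusted p 0.0837 and 0.0727). This is no separate check for Gfi1, since 25 of the 27 endothelial-like cells with Runx1 and Gfi1 were arterial-like. Cluster 10 held 50 of the 59 Runx1-positive arterial-like cells and 762 of all 1784, and the part of this mix of clusters was not tested.

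The main contrast of the study, mir-223 -/- against wild type, gave no call for Runx1, Gfi1 or Gfi1b in the classes tested. Of the member and class pairs, 9 had enough counts to be tested, and none passed in edgeR's quasi-likelihood test, where 0.102% of 14654 genes passed in endothelial-like cells (0.0478% higher, 0.0546% lower). The share was 0.0326% of 9212 in hemogenic-like (0.0217% higher, 0.0109% lower), 0% of 8041 in megakaryocyte-like, 0.105% of 4762 in erythroid-like (0.042% higher, 0.063% lower) and 0.00825% of 12119 in mesenchymal-like cells. In megakaryocyte-like cells 90 genes had an unadjusted p under 0.05, and DESeq2 also called 0 (42 unadjusted). In hemogenic-like cells the log2 fold change was 0.13 (SE 0.189) for Runx1, 0.28 (SE 0.286) for Gfi1 and −0.19 (SE 0.517) for Gfi1b. Gfi1b in megakaryocyte-like cells was at 0.06 (SE 0.286). Runx1 was at 0.32 (SE 0.531) in megakaryocyte-like, 0.21 (SE 0.262) in endothelial-like and −0.02 (SE 0.552) in mesenchymal-like cells, and Gfi1b at −0.20 (SE 0.351) in erythroid-like cells.

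Gfi1 in endothelial-like cells had the largest estimate, 0.97 (SE 0.537, edgeR adjusted p 0.99994), with the highest level in KO replicate 1: 30 of 3006 endothelial-like cells of that library were positive, 0.998%, against 0.520, 0.266 and 0.437% in the other libraries. Without KO replicate 1 the estimate was 0.07. No gene of the 6 pathway lists passed in any of the 5 classes.

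**Figure D5:**
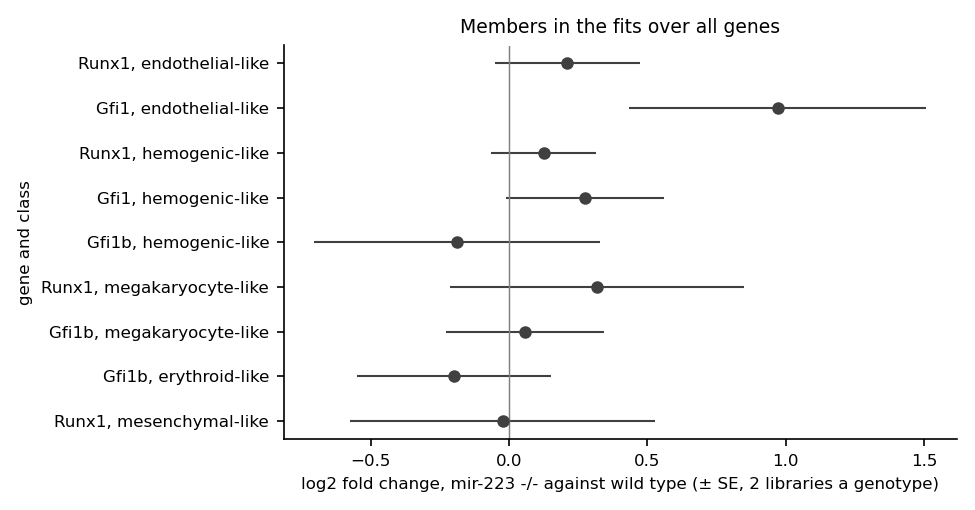
Log2 fold change (horizontal axis, ± SE, 2 libraries a genotype) of mir-223 -/- against wild type for the 9 member and class pairs tested (vertical axis). None passed, and Gfi1 in endothelial-like cells, at 0.97, rests on KO replicate 1.

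Shares of positive cells were compared in the same way. Thinned to 5000 UMIs, the expected share of hemogenic-like cells with Runx1 was 47.9, 57.1, 57.7 and 55.3% by library, and KO exceeded WT by 3.94 points (two-sided exact permutation p 0.667). For Gfi1 the difference was 2.21 points (exact p 1), and for Gfi1b 1.25 points (exact p 0.667). In megakaryocyte-like cells the difference for Gfi1b was −2.15 points, and in erythroid-like cells 0.41. With 2 libraries against 2, the smallest exact p is 0.33. Cells with both Runx1 and Gfi1 made up 63.6, 51.4, 68.0 and 51.3% of hemogenic-like cells by library, and in both genotypes replicate 1 lay above replicate 2.

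The size of the hemogenic-like class, in which all of these shares are taken, was 0.479, 1.08, 3.03 and 1.29% of kept cells by library. The KO libraries were both higher, by 1.38 points on average, at the smallest exact p the design allows, 0.333. The highest share was that of KO replicate 1, the library with almost no Xist; without it the difference was 0.516 points. Whether the embryos behind that library differ in other ways was not tested. KO and WT shares of kept cells were apart in other classes too. KO was higher in primordial germ cell-like cells, at 2.18 and 2.54% against at most 2.11% in WT. KO was lower in sinusoidal-like cells (4.24% in both libraries, against 7.67 and 5.53%). It was also lower in nephric or coelomic epithelium-like cells (0.606 and 0.528% against 0.828 and 0.815%). In the remaining classes the genotypes overlapped. Separation alone therefore does not single out the hemogenic-like class.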

How the data were processed

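The deposited matrices hold raw UMI counts per gene and barcode, made by the authors with Cell Ranger 3.1.0 per the file headers; Seurat 4 is named in the submitters' processing notes. For build and annotation nothing is given in the sources used here. Kept cells had at least 1000 genes and under 10% mitochondrial UMIs. Doublets were scored per library against simulated doublets at 0.8% per 1000 barcodes, which removed 3.57 to 10.2% of cells. Cells were normalised to 10000 UMIs and clustered on 2000 variable genes without the 3 members (40 principal components, 20 neighbours, Leiden resolution 1; leidenalg 0.10.2, scikit-learn 1.9.0). Clusters were named from marker lists, and endocardial-like, neural capillary-like and sinusoidal-like clusters belong to the endothelial-like cells.

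Sums of counts over the cells of a class in each library were tested with edgeR 4.0.16 (quasi-likelihood, Benjamini-Hochberg over all genes tested, threshold 0.05), with DESeq2 1.42.0 as an alternative; positive and negative cells were compared with library as a block. SE is the absolute log2 fold change over the square root of F. Thinned shares are expected shares at 5000 UMIs. A count of 0 allows up to 3 counts. Alternatives covered the filter, doublets, clustering, depth and each library left out. The tests were checked on simulated data. Named genes were the 3 members, the 5 genes most like each, up to 10 higher and 10 lower genes of each positive against negative comparison with the smallest adjusted p that moved the same way in every library used, and up to 4 passing members of each pathway list; the genes given for arterial-like cells alone were chosen after their values were seen. Members and lists were chosen with earlier results of these data known. Same-numbered libraries are not said to share a batch, so no pairing was used. A gene of the lists is not reported here by name.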

Additional observations from a re-analysis of the deposited data

How the results depend on the processing

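For KO against WT, the counts of called genes moved with the setting. DESeq2 called 41 genes in endothelial-like, 1 in hemogenic-like, 0 in erythroid-like (57 at an unadjusted p under 0.05) and 11 in mesenchymal-like cells. Without a filter on low counts 83, 22, 15, 20 and 47 passed in endothelial-like, hemogenic-like, megakaryocyte-like, erythroid-like and mesenchymal-like cells. With the replicate number as a block 51, 20, 20, 11 and 59 passed; same-numbered libraries deviated together by 0.0875 to 0.568 (correlation), but the labels give only a shared number. With doublets kept, 0 passed in mesenchymal-like cells (205 at an unadjusted p under 0.05, edgeR). Leaving out 1 library gave 17 to 95, 12 to 73, 1 to 22, 6 to 54 and 13 to 42 genes in the same order of classes. For positive against negative cells, the Runx1 comparison in endothelial-like cells gave 147 genes under DESeq2, 521 without a filter, 487 with doublets kept, 921 in arterial-like cells only (chosen after seeing the data) and 229 to 308 with 1 library left out. The Runx1 comparison in hemogenic-like cells gave 2, 58, 3 with doublets kept, 3 with status from thinned counts, and 0 to 31. The Gfi1 comparison gave 32 under DESeq2, 91 with thinned status and 129 to 256. The Gfi1b comparison gave 38 under DESeq2 and 47 to 310, and could not be fitted with thinned status, which left 1 library with 5 or more positive cells. The cause of these moves was not tested.

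Of the members' KO against WT estimates, none passed in any setting, and 11 alternative values had the other sign, against 60 that kept it. Gfi1b in hemogenic-like cells was 0.0258 under DESeq2, and Runx1 in mesenchymal-like cells was 0.0193 with doublets kept and 0.0288 with the replicate block. With 1 library left out, hemogenic-like cells gave −0.0559 to 0.494 for Runx1, −0.30 to 0.64 for Gfi1 and −0.46 to 1.53 for Gfi1b. Runx1 ranged from −0.46 to 1.12 in megakaryocyte-like and −0.72 to 0.85 in mesenchymal-like cells, and Gfi1b from −0.526 to 0.235 in erythroid-like cells. In the Runx1 comparison of hemogenic-like cells, thinned status turned Gfi1b to 0.0342, Cd47 to −0.0493, Fbn1 to 0.0015 and Ctsh to 0.0340. Runx1 between Gfi1b-positive and Gfi1b-negative cells ranged from −0.31 to 0.16. Of the genes named in those comparisons, 593 alternative values kept direction and call, 183 lost the call, 1 gained it and 5 turned.

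Differences in shares, KO minus WT in percentage points, turned in endothelial-like cells with Runx1 to −0.391 on untouched counts and −0.0140 with the members among the clustering genes, in hemogenic-like cells with Gfi1 to −0.435 on untouched counts, in megakaryocyte-like cells with Gfi1b to 6.49 at 10000 UMIs, and in hemogenic-like cells with both Runx1 and Gfi1 to −0.528 with the members among the clustering genes. With 1 library left out, Runx1 ranged from −0.0243 to 0.155 in endothelial-like, −0.664 to 8.53 in hemogenic-like and −1.64 to 0.217 in mesenchymal-like cells. Gfi1 ranged from −4.27 to 8.69 in hemogenic-like cells, and cells with both from −6.18 to 10.5. Gfi1b ranged from −0.115 to 2.62 in hemogenic-like, −4.25 to −0.0512 in megakaryocyte-like and −2.88 to 3.71 in erythroid-like cells. The hemogenic-like share of kept cells ranged from 0.516 to 2.25.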

Other observations

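The class with the fewest cells per library sets the precision: WT replicate 1 holds 11 hemogenic-like cells and WT replicate 2 holds 13 erythroid-like cells. Fewer UMIs of a gene in a class and fewer cells expressing it cannot be told apart in the summed levels. Mesenchymal-like cells made up 14.8, 3.44, 12.8 and 4.31% of kept cells in WT replicates 1 and 2, then the KO replicates, and 4 of their 5 Gfi1-positive cells also had a Runx1 UMI.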
